A study of Mus musculus with 8 samples.

Results

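The EGF receptor family and its ligands were followed across paw tissue of prolactin-treated mice. The 9 genes were taken by their symbols, and all 9 were found among the 22609 gene symbols counted in every library. Of these, 3 encode receptors (Egfr, Erbb2 and Erbb3) and 6 encode ligands (Ereg, Btc, Hbegf, Tgfa, Epgn and Areg). RNA sequencing was performed on paw tissue of 4 female and 4 male C57BL/6J mice. Both sexes were labelled as having received prolactin, a pituitary hormone best known for lactation, into the sole of the paw at 0.1 µg per day for 12 days. Animals given buffer were not analysed here, so every value describes the prolactin-treated paw and the sexes have no untreated background. The age of the mice was not given in the labels. The series is about sex and lasting pain, and the comparison open to it is female against male.

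EGF receptors are membrane tyrosine kinases that pair with each other when a ligand binds. Each ligand is made as a membrane-bound precursor, which metalloproteases cut free, and the paired receptors signal through the RAS-MAP kinase and PI3-kinase routes. In skin the pathway is known for driving keratinocyte growth and migration, for hair follicle cycling and for wound repair. EGFR binds all 6 ligands studied here, ERBB2 has no known ligand of its own and serves as a partner, and ERBB3 binds neuregulins and has very weak kinase activity. Betacellulin, epiregulin and HB-EGF also bind ERBB4.

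In RefSeq's annotation of the mouse genome (GRCm38.p6), 4 of the ligand genes lie side by side on chromosome 5 in the order Epgn, Ereg, Areg, Btc, with no other protein-coding gene annotated between them. The other members lie on other chromosomes, with Egfr and Erbb2 both on chromosome 11. The 250 bases before the annotated start site are printed for Btc, Epgn and Egfr, because these 3 genes had no overlap between female and male libraries, and for Areg, the chromosome 5 neighbour of Btc. Of the 9 genes, 6 had an entry in the RefSeq promoter table. The windows are chr5:91402995-91403244 (minus strand), chr5:91027267-91027516 (plus strand), chr5:91139349-91139598 (plus strand) and chr11:16751953-16752202 (plus strand), in GRCm38.p6, printed 5′ to 3′ along the gene. Capitals mark matches to 2 motifs, the TATA box (TATAAA) and the cAMP response element (TGACGTCA).
Btc: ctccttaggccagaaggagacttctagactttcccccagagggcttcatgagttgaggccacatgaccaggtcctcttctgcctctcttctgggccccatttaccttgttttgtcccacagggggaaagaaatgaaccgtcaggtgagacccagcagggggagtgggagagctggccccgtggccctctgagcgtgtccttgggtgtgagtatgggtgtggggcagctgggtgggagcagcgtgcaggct
Epgn: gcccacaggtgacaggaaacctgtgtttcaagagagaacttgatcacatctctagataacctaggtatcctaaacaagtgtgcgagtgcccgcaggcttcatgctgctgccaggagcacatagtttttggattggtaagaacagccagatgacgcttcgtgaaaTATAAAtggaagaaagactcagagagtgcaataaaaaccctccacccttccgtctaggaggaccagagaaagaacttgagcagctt
Areg: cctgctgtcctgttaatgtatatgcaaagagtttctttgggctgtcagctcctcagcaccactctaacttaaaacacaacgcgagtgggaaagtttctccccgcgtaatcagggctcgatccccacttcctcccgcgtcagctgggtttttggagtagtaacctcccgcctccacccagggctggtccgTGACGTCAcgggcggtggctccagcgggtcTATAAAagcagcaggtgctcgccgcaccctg
Egfr: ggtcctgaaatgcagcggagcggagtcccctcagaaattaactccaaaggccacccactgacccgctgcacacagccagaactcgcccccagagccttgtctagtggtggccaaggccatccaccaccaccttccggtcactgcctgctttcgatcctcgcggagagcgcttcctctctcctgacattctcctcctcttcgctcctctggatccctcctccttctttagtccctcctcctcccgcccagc

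Areg held TATAAA beginning 31 bases and TGACGTCA beginning 61 bases before the start site, and Epgn held TATAAA beginning 86 bases before it. The windows of Btc and Egfr held neither. Searched on both strands, TATAAA was found in 12.4% and TGACGTCA in 1.55% of the 32851 windows of 250 bases in the table. The AP-1 site TGANTCA was searched as well and was found in 6.75% of all windows and in none of the 4 printed. No 2 matches overlapped. G and C made up 59.6% of the Btc window, 46.8% of the Epgn window, 57.2% of the Areg window and 60.8% of the Egfr window, against a median of 52.4% over all windows. Such matches are descriptions of sequence and say nothing about which factors were bound in these paws.

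The libraries held 16753528 to 24993744 counts assigned to genes. Xist and the Y-linked genes Ddx3y, Eif2s3y, Uty and Kdm5d placed all 8 libraries in the sex of their labels. Keratinocyte transcripts were abundant in every library. Muscle content differed widely. The summed level of 14 fast muscle markers was lowest in female replicate 3, at 29.7 CPM (counts scaled to a common library total), and highest in male replicate 2, at 28071 CPM. Female replicate 3 also had the highest summed level of hair follicle markers (792 CPM) and male replicate 2 the lowest (111 CPM). Values without these or other libraries stand beside the members that they moved most.

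The order of the members' levels was set on a per-length scale, as CPM per kilobase of exon, with libraries scaled by TMM, a factor that corrects for differences in library make-up. Ereg was the most abundant member, with a mean of 50.9 CPM per kb over the 8 libraries, and its range of 34.5 to 70.2 overlapped that of Erbb2 (21.7 to 35.7). Btc, at 16.3 CPM per kb, and Erbb3, at 15.6 CPM per kb, overlapped each other. Their order also differed between the sexes, since Btc had rank 3 in females and rank 4 in males. Egfr followed at 9.08 CPM per kb, with a narrow range of 8.06 to 10.4. That range lay below the range of Erbb3 and above that of Hbegf, but inside the wide range of Btc (5.59 to 39.0). Hbegf (4.52 CPM per kb), Tgfa (4.11), Epgn (3.15) and Areg (1.91) followed, each overlapping the next. Hbegf had rank 6 in females and rank 7 in males, and Tgfa had rank 7 in females and rank 6 in males. The order of the means over the 8 libraries was the same with the length of the longest coding transcript. Egfr and Hbegf then lay close together, at 10.1 and 9.19 CPM per kb. Epiregulin was the leading ligand transcript, and Erbb2 the leading receptor transcript, in both sexes.

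**Figure D1:**
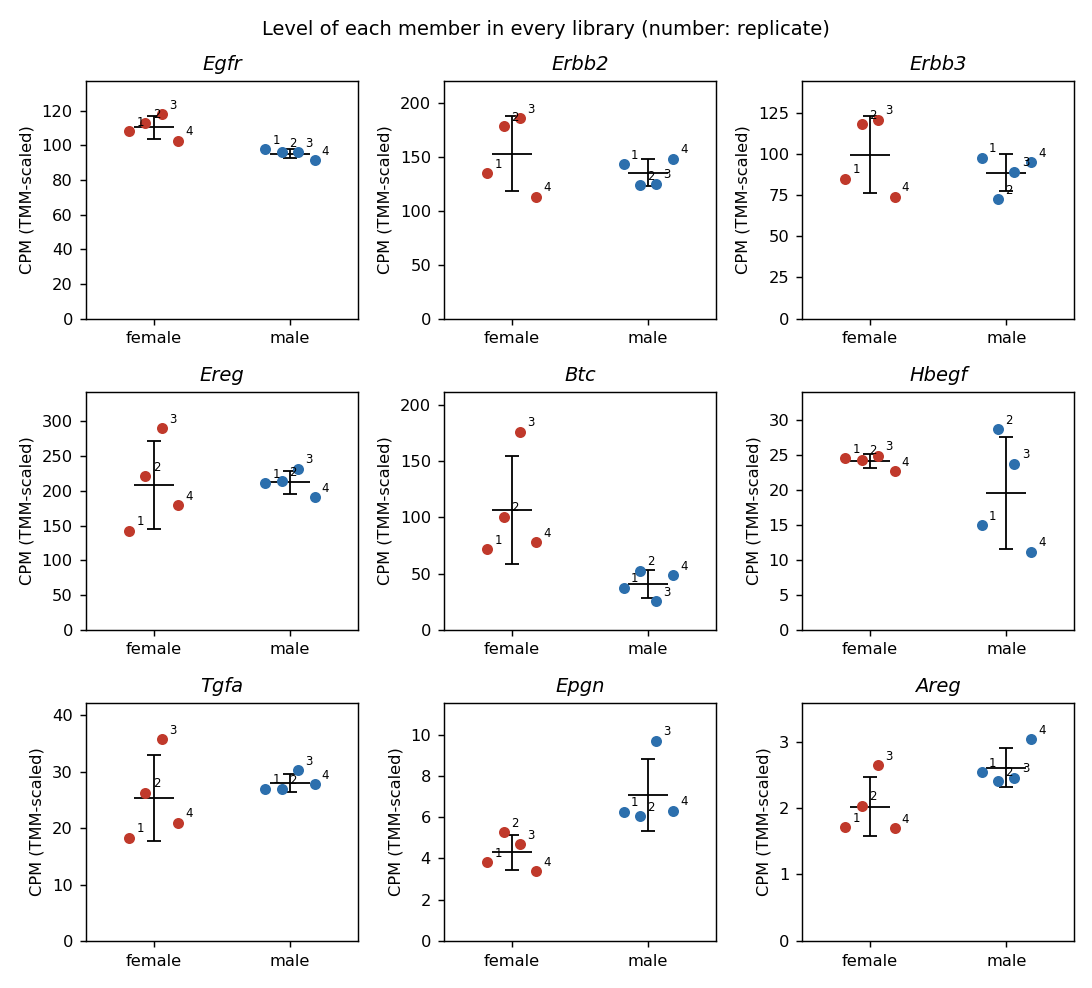
Level of each of the 9 genes in every library, in TMM-scaled CPM, with females on the left and males on the right; each point is 1 library, numbered by replicate, and the bar and whiskers are the mean and SD (n = 4 each). The points of the sexes do not overlap for Egfr, Btc and Epgn, and Btc runs from 71.7 to 176 CPM in females, against 25.3 to 52.5 CPM in males.

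Among the receptors, Egfr was the one whose libraries parted by sex, by a small amount. Egfr stood at 108, 113, 118 and 103 CPM in female replicates 1 to 4, against 97.7, 96.0, 95.9 and 91.3 CPM in male replicates 1 to 4. Every female library lay above every male library, and the spread within each sex was narrow. Females averaged 110 ± 6.51 CPM, against 95.2 ± 2.73 CPM in males (mean ± SD of 4 libraries per sex). Female over male, the log2 fold change was 0.21 (SE 0.06). It did not pass edgeR's quasi-likelihood test after Benjamini-Hochberg adjustment over all 14790 tested genes (adjusted p = 0.594, unadjusted p = 0.00992). In whole tissue, a change in the number of cells that make a transcript and a change in the amount per cell cannot be told apart.

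Erbb2, the partner receptor, stood at 135, 179, 186 and 113 CPM in female replicates 1 to 4, against 143, 124, 125 and 149 CPM in male replicates 1 to 4. Erbb3, the neuregulin receptor, stood at 85.1, 118, 121 and 74.1 CPM in females and at 97.8, 72.5, 89.2 and 94.9 CPM in males, in the same order. For both genes female replicates 2 and 3 were the highest of the 8 libraries, female replicate 4 was the lowest or near it, and the sexes overlapped. Their log2 fold changes were 0.18 (SE 0.16) for Erbb2 and 0.17 (SE 0.17) for Erbb3, and neither passed (edgeR adjusted p = 0.982 and 0.999). Without female replicate 3 they were 0.07 (SE 0.16) and 0.06 (SE 0.17), and without female replicate 4 they were 0.29 (SE 0.14) and 0.28 (SE 0.16). Without female replicate 2 they were 0.095 (SE 0.17) and 0.075 (SE 0.18), and without female replicate 1 they were 0.23 (SE 0.18) and 0.23 (SE 0.19). Leaving out female replicate 2 or 3 thus lowered both fold changes, and leaving out female replicate 1 or 4 raised them. Erbb3 was also lower, at 0.07 (SE 0.19), without male replicate 2. The ratio of Erbb3 to Erbb2, per length, kept to 0.546 to 0.572 in females and 0.506 to 0.616 in males. The ratio of Erbb2 to Egfr ran from 2.40 to 3.45 in females and from 2.81 to 3.54 in males.

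Betacellulin was the ligand with the widest gap between the sexes. Btc, which encodes a ligand of EGFR and ERBB4, stood at 71.7, 101, 176 and 78.1 CPM in female replicates 1 to 4, against 37.3, 52.5, 25.3 and 48.7 CPM in male replicates 1 to 4. All 4 female libraries lay above all 4 male libraries, and female replicate 3 was far above the other females. Females averaged 107 ± 48.1 CPM, against 40.9 ± 12.3 CPM in males (mean ± SD of 4 libraries per sex), and the fitted ratio was 2.61. The log2 fold change was 1.38 (SE 0.34), and edgeR did not call it over all genes (adjusted p = 0.447, unadjusted p = 0.00351). DESeq2 did call it, with Btc higher in females by 1.37 on the log2 scale (SE 0.33) and an adjusted p of 0.00815, whereas limma-voom gave an adjusted p of 0.450. Without female replicate 3 the edgeR log2 fold change was 1.03 (SE 0.25, adjusted p = 0.535), and without both female replicate 3 and male replicate 2 it was 1.15 (SE 0.26, adjusted p = 0.517).

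Epigen and amphiregulin lay on the other side. Epgn, an EGFR ligand, stood at 3.83, 5.27, 4.68 and 3.39 CPM in female replicates 1 to 4, from 65 to 114 counts, against 6.27, 6.04, 9.71 and 6.32 CPM in male replicates 1 to 4, from 113 to 178 counts. Every female library was below every male library. The log2 fold change was -0.72 (SE 0.22), a level 0.606 times that of males, and did not pass (edgeR adjusted p = 0.594, unadjusted p = 0.00943; DESeq2 adjusted p = 0.175). Areg, an EGFR ligand known from wound and immune responses, was the lowest member, with 29 to 60 counts per female library and 45 to 62 per male library. It stood at 1.71, 2.03, 2.65 and 1.70 CPM in female replicates 1 to 4, against 2.54, 2.41, 2.45 and 3.04 CPM in male replicates 1 to 4. Female replicate 3 was the one female library within the male range. The log2 fold change of Areg was -0.37 (SE 0.21, edgeR adjusted p = 0.843), and without female replicate 3 it was -0.52 (SE 0.20, adjusted p = 0.826).

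Ereg, the most abundant ligand transcript, did not differ between the sexes beyond its spread. It stood at 142, 221, 290 and 179 CPM in female replicates 1 to 4, against 211, 214, 232 and 191 CPM in male replicates 1 to 4. The female libraries spanned the male range on both sides, and the log2 fold change was -0.03 (SE 0.20, edgeR adjusted p = 0.999). Tgfa, an EGFR ligand of keratinocytes, stood at 18.3, 26.3, 35.8 and 21.0 CPM in females and at 27.0, 26.9, 30.3 and 27.8 CPM in males, in replicate order (log2 fold change -0.14, SE 0.19, edgeR adjusted p = 0.999). Without female replicate 3, Ereg had -0.23 (SE 0.15) and Tgfa had -0.36 (SE 0.13, adjusted p = 0.821), and without female replicate 1, Ereg had 0.12 and Tgfa had -0.018. Ereg and Tgfa shared an order in the females, with replicate 3 highest, replicate 2 next, then replicates 4 and 1. Hbegf, the heparin-binding ligand of EGFR and ERBB4, stood at 24.5, 24.3, 24.9 and 22.6 CPM in females and at 14.9, 28.6, 23.7 and 11.1 CPM in males, in replicate order. Its female libraries lay close together (SD 0.985 CPM), while its male libraries ran from below to above them (SD 7.99 CPM). The log2 fold change of Hbegf was 0.30 (SE 0.27, edgeR adjusted p = 0.981). It was 0.53 (SE 0.23) without male replicate 2 and 0.10 (SE 0.20) without male replicate 4.

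In all, edgeR called 0 of the 9 members, where it called 14 of 14790 genes (0.0947%, with 0.0406% higher and 0.0541% lower in females). An unadjusted p under 0.05 was reached by 3 members (Egfr, Btc and Epgn), where 6.53% of all tested genes reached it. DESeq2 called 1 member, Btc, where it called 0.652% of all genes with an adjusted p (0.317% higher and 0.335% lower in females). The limma-voom fit called 0 members, where it called 0.108% of genes (0.0473% higher and 0.0609% lower). For 3 members the female and male libraries were fully apart, 2 being higher and 1 lower in every female, where 4.73% of all tested genes were apart (2.93% higher and 1.81% lower). Of the members 5 lay above 0 and 4 below, where 52.7% of all tested genes lay above 0. Their median log2 fold change was 0.17, beside 0.01 over all genes tested. Without female replicate 3 the count of members with no overlap was 5, since Areg and Tgfa were then lower in every remaining female as well. Over all tested genes, 7.23% were apart without that library (3.18% lower in every female). The count was 3 whichever other library was left out, where 6.31 to 9.26% of all genes were apart.

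**Figure D2:**
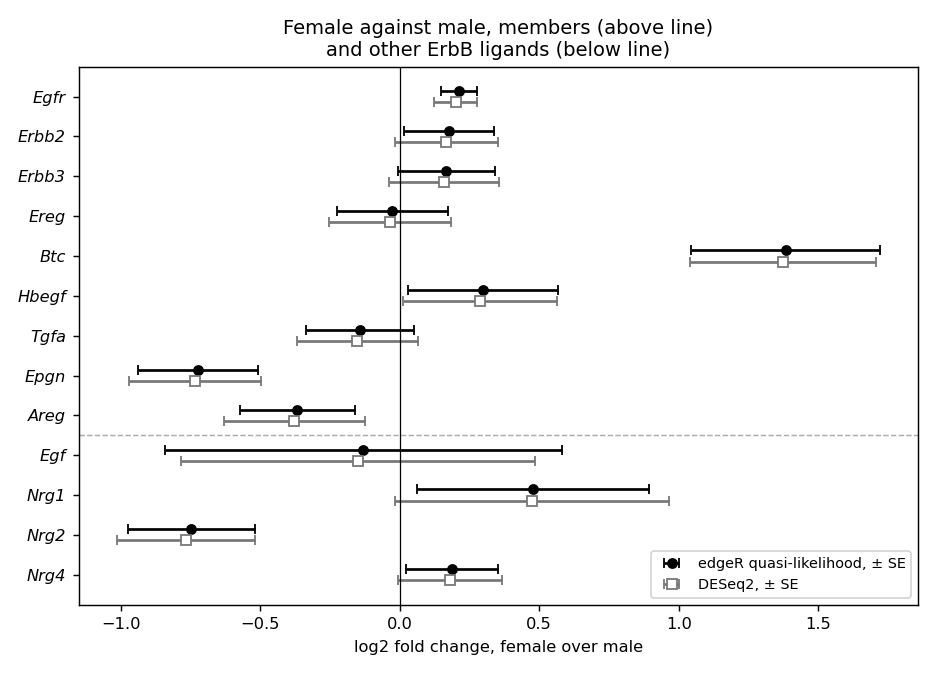
Log2 fold change, female over male, of the 9 genes (above the dashed line) and of 4 other ligand genes of the family (below it), from edgeR (filled circles) and DESeq2 (open squares), with SE as whiskers. Btc lies farthest to the right at 1.38, while Epgn (-0.72) and Nrg2 (-0.75) lie farthest to the left.

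The make-up of the ligand transcripts was described as each ligand's share of the 6, per length. Btc made up 25.7, 24.9, 31.3 and 24.1% of the ligand pool in female replicates 1 to 4, against 11.4, 14.7, 7.10 and 15.5% in male replicates 1 to 4. Ereg made up 55.8 to 60.4% in females and 65.8 to 71.4% in males. The shares of both ligands parted the sexes without overlap, Btc being higher and Ereg lower in every female. Shares of 1 pool are not independent of each other, so a higher share of Btc lowers the others. The remaining shares were 4.42 to 4.57% in females and 5.26 to 6.15% in males for Tgfa, 2.08 to 3.43% and 4.24 to 6.82% for Epgn, and 1.75 to 2.28% and 2.51 to 3.59% for Areg, each lower in every female. Hbegf overlapped, at 4.12 to 8.21% in females and 3.30 to 7.51% in males. Female replicate 3, which stood apart in the level of Btc, also had the highest Btc share, and the other 3 females lay between 24.1 and 25.7%. With the length of the longest coding transcript the Btc share was 30.9 to 39.6% in females and 9.85 to 21.1% in males.

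**Figure D3:**
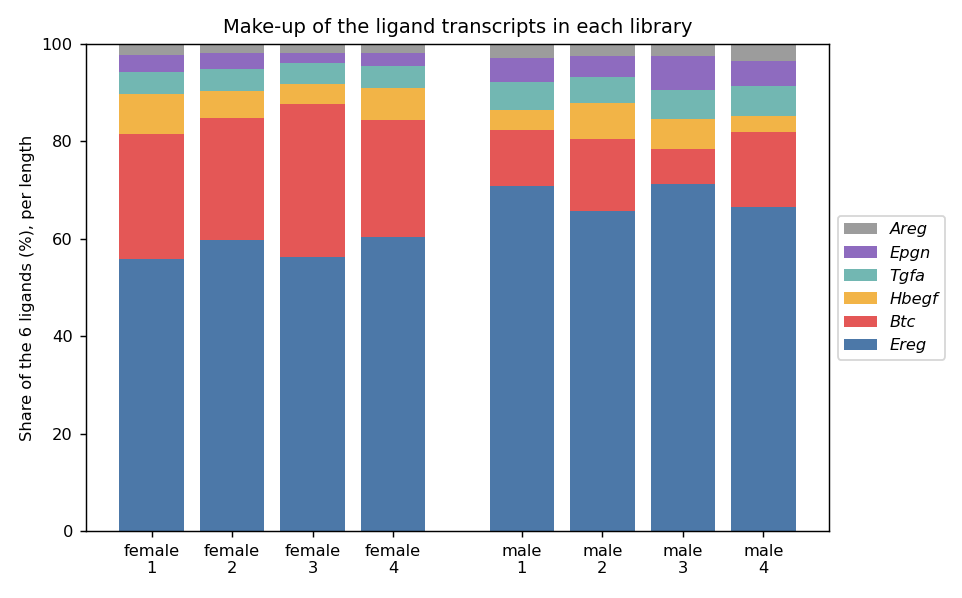
Share of each ligand in the sum of the 6 ligand transcripts (%), on the CPM per kb scale, as 1 stacked bar per library, with the 4 female libraries on the left and the 4 male libraries on the right. The Btc segment takes 24.1 to 31.3% in females and 7.10 to 15.5% in males, and Ereg is the largest segment in all 8 bars.

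The summed level of the 6 ligands was 61.8, 89.5, 125 and 71.8 CPM per kb in female replicates 1 to 4, and 72.2, 78.9, 78.7 and 69.6 CPM per kb in male replicates 1 to 4. The summed level of the 3 receptors was 43.1 to 66.2 CPM per kb in females and 44.4 to 52.4 CPM per kb in males. Both sums overlapped between the sexes, and the females spread more widely than the males in both. The ratio of Btc to Ereg was 0.460, 0.416, 0.556 and 0.399 in female replicates 1 to 4, against 0.161, 0.224, 0.0994 and 0.233 in male replicates 1 to 4. The ratio of Btc to its receptor Egfr was 1.66 to 3.75 in females and 0.660 to 1.37 in males. Neither ratio overlapped between the sexes. Btc alone was already apart, so these ratios are not separate findings.

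Because most members are known as epidermal transcripts, their values were set beside markers of the cell types that a paw can hold. The summed level of the 7 basal keratinocyte markers, led by the keratin genes Krt14 and Krt5, was 4387, 6082, 5712 and 4159 CPM in female replicates 1 to 4, and 5551, 4252, 5436 and 5684 CPM in male replicates 1 to 4. Erbb2 and Erbb3 were likewise high in female replicates 2 and 3 and low in female replicate 4. Per 1000 CPM of basal markers, Erbb2 ran from 27.2 to 32.6 CPM in females and from 23.1 to 29.2 CPM in males, and Egfr from 18.5 to 24.7 CPM in females and from 16.1 to 22.6 CPM in males. On that scale Egfr overlapped between the sexes, while Erbb3 did not (17.8 to 21.2 CPM in females, 16.4 to 17.6 CPM in males). Btc did not overlap either, at 16.3 to 30.9 CPM in females and 4.65 to 12.3 CPM in males, nor did Epgn, at 0.816 to 0.873 CPM in females and 1.11 to 1.79 CPM in males. Btc and Epgn were already apart without this scaling. Ereg, Tgfa and Areg overlapped on it. The share of all genes that are apart on this scale was not computed, so no background stands beside these members. A keratinocyte score was taken over the basal and suprabasal markers together, so it is not a score of basal content alone. With it as a covariate the log2 fold changes were 0.26 (SE 0.06) for Erbb2, 0.26 (SE 0.06) for Erbb3 and 0.23 (SE 0.05) for Egfr. None passed (edgeR adjusted p = 0.109, 0.114 and 0.114).

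Hair follicle markers moved with Btc in part. Their summed level over 8 genes, led by Krt71 and Krt25 of the inner root sheath, was 310, 339, 792 and 274 CPM in female replicates 1 to 4, and 245, 111, 436 and 335 CPM in male replicates 1 to 4. The highest library of both was female replicate 3. Of the 7 tested hair markers, 6 lay above 0, where 52.7% of all tested genes did. Their median log2 fold change was 0.59, and 0 were called by edgeR. Such a one-sided count was not particular to the hair list. Of the mast cell markers 6 of 6 lay above 0, and of the T cell markers 5 of 5. Of the eccrine sweat gland markers 0 of 7 did, of the fast muscle markers 1 of 14 and of the fibroblast markers 1 of 7. The basal keratinocyte list was mixed, at 4 of 7. Male replicate 3 had the second highest hair marker level and the lowest Btc level, and male replicate 2 the lowest hair marker level and the highest Btc level among males. Per 1000 CPM of hair markers, Btc overlapped between the sexes, at 223 to 296 CPM in females and 57.9 to 472 CPM in males. With the hair marker score as a covariate (added once the data had been seen) the log2 fold change of Btc was 1.27 (SE 0.43, edgeR adjusted p = 0.624). With the fast muscle score as a covariate it was 1.12 (SE 0.26, adjusted p = 0.254), and with the keratinocyte score 1.43 (SE 0.32, adjusted p = 0.124).

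Of the other marker lists, suprabasal keratinocyte markers summed to 59027 to 86387 CPM in females and 74278 to 95866 CPM in males. Stressed keratinocyte markers summed to 571 to 1086 CPM in females and 658 to 1176 CPM in males, and 2 of their 8 tested genes lay above 0. Schwann cell markers, set beside Erbb3 because Schwann cells are known to use it, summed to 270 to 502 CPM in females and 214 to 516 CPM in males. They were highest in male replicate 2, the library with the lowest Erbb3 level, and lowest in male replicate 1. Macrophage markers summed to 338 to 1019 CPM in females and 574 to 648 CPM in males. In the 18 marker lists edgeR called 0 of 109 tested genes, where it called 0.0947% of all tested genes. Of these lists, 17 overlapped between the sexes in their summed level. The exception, 5 cartilage and bone markers, held 1.71 to 5.05 CPM in females and 1.02 to 1.47 CPM in males. Among 5 markers of bone marrow neutrophils, which summed to at most 1.99 CPM, Ngp had no count in any library. The part that these cell types have in the members' values was not tested beyond these ratios and covariates.

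**Figure D4:**
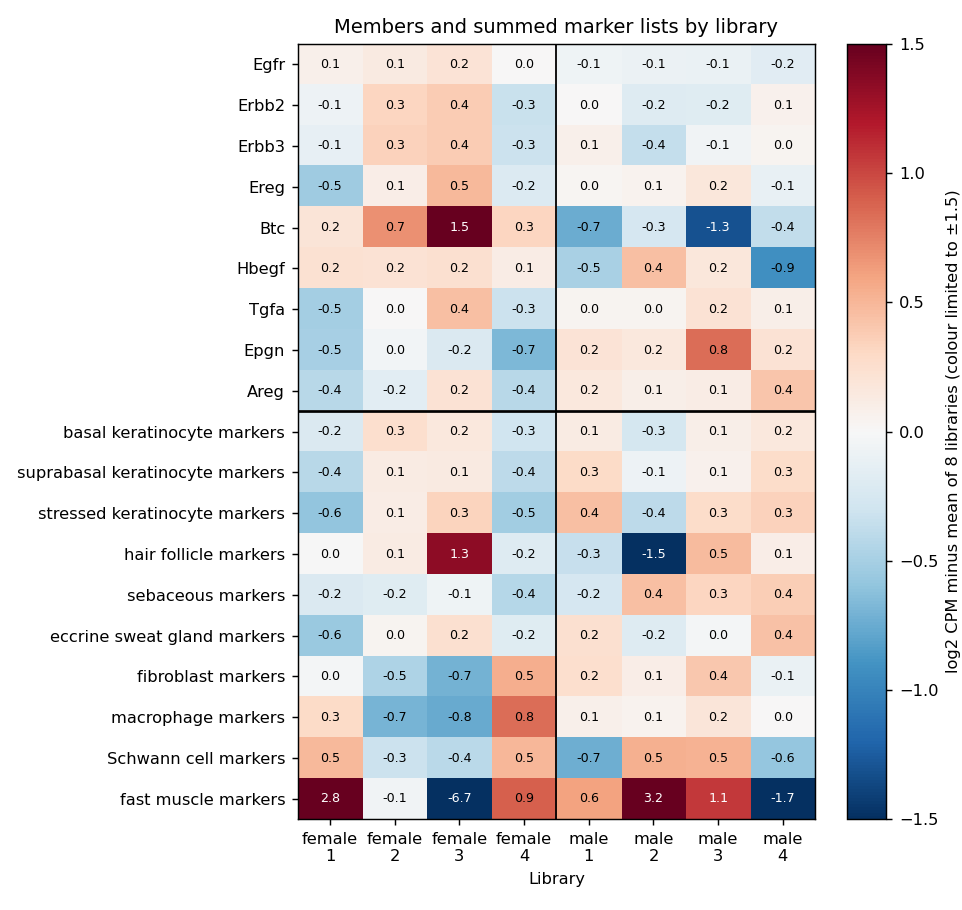
Log2 CPM minus the mean of the 8 libraries for each of the 9 genes (top) and for the summed level of 10 marker lists (bottom), with the 4 female libraries left of the line and the 4 male libraries right of it; red is above and blue below the mean, with colour limited to 1.5 in either direction. Btc and the hair follicle markers are both darkest red in female replicate 3, while the Btc row alone among the ligands is red in all females and blue in all males.

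The other genes of the family averaged at most 7.92 CPM in either sex, a range that takes in the members Areg and Epgn. Nrg2, a neuregulin ligand of ERBB3 and ERBB4, stood at 4.77, 2.86, 4.63 and 3.20 CPM in female replicates 1 to 4, against 5.62, 6.63, 5.40 and 8.28 CPM in male replicates 1 to 4. Every female library lay below every male library, and the gene did not pass (log2 fold change -0.75, SE 0.23, edgeR adjusted p = 0.604). Nrg4, a ligand of ERBB4, averaged 6.51 ± 1.08 CPM in females, against 5.72 ± 0.680 CPM in males (mean ± SD of 4 libraries per sex). Nrg1 had 13 to 31 counts per female library and 6 to 17 per male library. Erbb4, the receptor that neuregulins, Btc, Ereg and Hbegf can use, had 2 to 10 counts per female library and 3 to 12 per male library and was removed by the filter of the edgeR fit (DESeq2 log2 fold change -0.42, SE 0.69, adjusted p = 0.999), and Nrg3 had none in any library. Egf, the founding ligand, stood at 15.7, 4.99, 2.25 and 6.05 CPM in female replicates 1 to 4 and at 3.98, 18.02, 6.38 and 3.28 CPM in male replicates 1 to 4. Its level followed the fast muscle markers in both sexes. Those markers summed to 20928, 2990, 29.7 and 5760 CPM in female replicates 1 to 4 and to 4733, 28071, 6473 and 936 CPM in male replicates 1 to 4. The log2 fold change of Egf was -0.13 with an SE of 0.71.

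Genes that act before and after the receptors showed no called difference. Over 5 pathway lists, edgeR, DESeq2 and limma-voom each called 0 of 77 tested genes, where they called 0.0947, 0.652 and 0.108% of all genes. At such shares a count of 0 does not set these genes apart. An unadjusted p under 0.05 in edgeR was reached by 6 of the 77 (7.79%), near the 6.53% of all tested genes. The 10 genes of ligand shedding hold the metalloproteases that release the ligands and their regulators. Of them 8 lay above 0, where 52.7% of all tested genes did. The median log2 fold change of the 10 was 0.11, beside 0.01 over all genes tested. Those of smallest p were Rhbdf1, an inactive rhomboid (0.14, SE 0.07), Adam15 (-0.16, SE 0.08), Rhbdf2, which brings the protease ADAM17 to the cell surface (0.27, SE 0.14), and Timp3, an inhibitor of such proteases (0.28, SE 0.17). Their adjusted p ran from 0.770 to 0.866.

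Of 21 receptor inhibitors and feedback genes, 14 lay above 0, with a median log2 fold change of 0.02. Lrig2, of a family of membrane proteins whose member LRIG1 restrains EGF receptors, stood at 43.7, 48.0, 46.2 and 39.9 CPM in female replicates 1 to 4, against 36.8, 38.8, 36.4 and 36.1 CPM in male replicates 1 to 4. All females lay above all males, by 0.26 on the log2 scale (SE 0.08; adjusted p = 0.594 in edgeR). Its relative Lrig3 had 0.28 (SE 0.11), and the suppressors of cytokine signalling Socs5 and Socs4 had -0.33 (SE 0.14) and 0.16 (SE 0.09), with the sexes overlapping for all 3.

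Of 25 adaptor and signalling genes, 17 lay above 0, with a median of 0.06. Braf, a kinase of the MAP kinase route, had a log2 fold change of 0.34 (SE 0.11), and Map2k2, the kinase that follows it, had -0.18 (SE 0.07). Map2k2 was lower in every female, at 90.9 to 102.7 CPM, against 103.0 to 114 CPM in males. Gab1, an adaptor, had 0.19 (SE 0.09). Of 17 early target genes, 9 lay above 0 (median 0.03), and the 4 of smallest p were Junb (-0.22, SE 0.10), Vegfa (-0.20, SE 0.13), Phlda1 (-0.31, SE 0.21) and Myc (0.13, SE 0.11). None of these passed, with adjusted p of 0.641 or more in both lists.

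**Figure D5:**
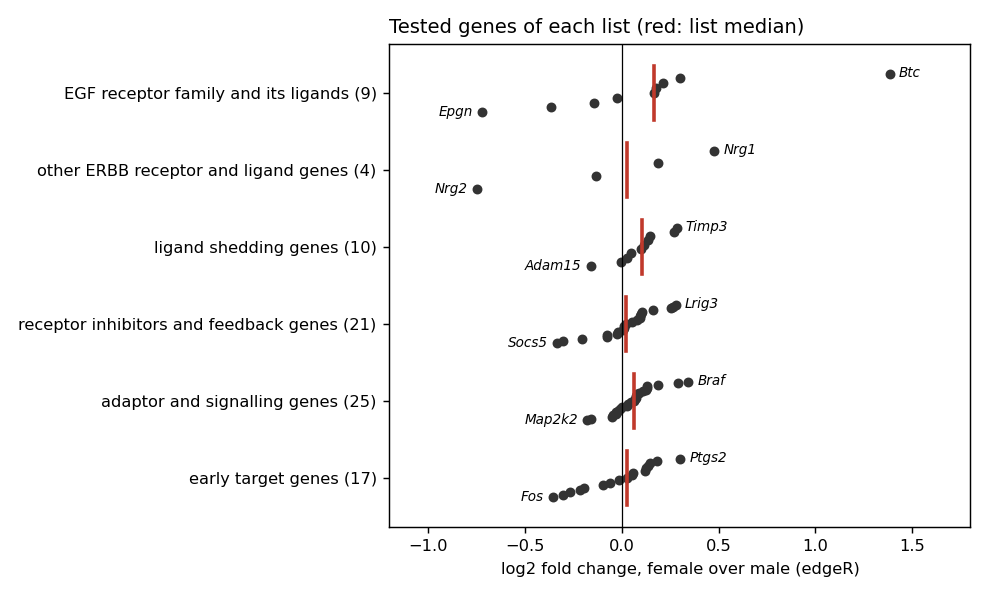
Log2 fold change, female over male (edgeR), of every tested gene in the family and in the 5 pathway lists, with the number of genes in brackets, the list median as a red bar and the lowest and highest gene of each list named. Btc at 1.38 and Epgn at -0.72 lie well outside the 4 lists of ligand shedding, inhibitor, signalling and early target genes, which span -0.36 to 0.34. The list of other ErbB receptor and ligand genes spans -0.75 to 0.48, and Epgn lies inside it.

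The genes whose levels across the 8 libraries were most like each member's were found by Pearson's r of log2 CPM among 11905 genes with a mean of at least 5 CPM. These values are descriptions without a test, and all points share the same libraries, with their muscle and keratinocyte content. For Btc they were Nupl2 (r = 0.988), Zfp644 (r = 0.967) and Tec (r = 0.965). For Egfr they were Bclaf1 (r = 0.990), Fbxw2 and 4930422G04Rik. Erbb2 was most like Cdh1, the epithelial cadherin (r = 0.986), followed by Osbpl5 and Bpifc, and Erbb3 was most like Baz2a (r = 0.991), followed by Golgb1 and Mtap9. Among the nearest genes to Areg were Spink5, a protease inhibitor of the outer epidermis (r = 0.983) and Cyp3a13, and those to Epgn were Med26 (r = 0.967), Cwh43 and 2210411K11Rik. Ereg had another member, Tgfa, as its nearest gene (r = 0.948), then Sdcbp2 and Rbm28. Tgfa was nearest to Sdcbp2 (r = 0.970), then Gdpd3 and Camsap1l1. Hbegf was most like Bmp4 (r = 0.970, with Spearman's rho at 0.595), Rnd3 and Kctd9.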

How the data were processed

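The tools named in the submitters' processing notes are bcl2fastq, TopHat2 and HTSeq, and the build is mm9. Versions, gene models and whether the counting used strand were not given in the sources used here, so antisense reads may be included. Per the labels' protocols, about 500 ng RNA entered a stranded poly(A) kit and 50 bp single-end reads were sequenced. The authors deposited raw read counts per gene symbol, 1 file per library. The counter's summary lines were dropped; 18.03 to 21.15% of uniquely placed reads lay outside genes. Libraries of 1 sex differed by far more than sampling noise (chi-square per degree of freedom of 13.2 or more).

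Counts were kept by filterByExpr (14790 genes, all 9 members) and scaled by TMM, and sex was tested with edgeR 4.0.16 (glmQLFit, robust, and glmQLFTest) in R 4.3.3, with Benjamini-Hochberg adjustment and calls at an adjusted p under 0.05. Each SE was taken as the absolute log2 fold change divided by the root of its F statistic. Alternatives used DESeq2 1.42.0, limma 3.58.1, other scalings and filters, covariates, a replicate block and 1 library fewer. A covariate is the mean log2 CPM of a marker list, and the keratinocyte covariate joins the basal and suprabasal lists. Lengths are merged exons of GENCODE vM21 (GRCm38), which differs from mm9; no mm9 coordinates are printed. On counts simulated for female against male over 14676 genes, edgeR recovered 64 of the 64 genes given a 4-fold difference, 25 of the 54 given 2-fold and 4 of the 82 given 1.5-fold, and called 3 of 14476 unchanged genes. The simulated counts were independent between genes and had the trended dispersion, not each gene's own. They lacked the differences in muscle and keratinocyte content of the real libraries, so these rates need not hold for the real data.

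The members, lists and tests were chosen with earlier results of these data known. Named were all members, the other ErbB receptor and ligand genes, the 4 genes of smallest p per pathway list (none was called) and the 3 most alike genes per member. Of the genes so chosen, 2 are not reported here. Of the marker lists, the most abundant genes and those at 0 in every library could be named. Of the symbols listed, 4 were not matched in the files.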

Additional observations from a re-analysis of the deposited data

Results flagged for a closer look

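Single libraries were compared with the other 3 of their sex for the members, 4 other ligand genes, summed marker lists and depth. Of 64 such sets of 4, 3 held a library set far off from its group by Dixon's criterion at 95%, and about 1 in 20 is met by chance. For Epgn, male replicate 3 had 3.29 log2 CPM and the other males 2.62 to 2.68. For the sum of the basal keratinocyte markers, male replicate 2 had 12.05 log2 CPM and the other males 12.41 to 12.47. For the sum of the cartilage and bone markers, female replicate 4 had 2.37 log2 CPM and the other females 0.86 to 1.11.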

How the results depend on the processing

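Egfr and Btc stayed above 0, and Epgn and Areg below 0, in each of 22 other fits, with log2 fold changes of 0.17 to 0.24 for Egfr, 1.03 to 1.53 for Btc, -0.86 to -0.53 for Epgn and -0.58 to -0.28 for Areg. Erbb2 (0.017 to 0.29), Hbegf (0.10 to 0.53) and Tgfa (-0.39 to -0.018) kept their direction as well, though Erbb2 and Tgfa came near 0. No member was called in any of these fits except Btc in DESeq2 (1.37). Ereg lay at 0.025 with the keratinocyte covariate, and at -0.23 to 0.12 with 1 library left out, being above 0 without female replicate 1, female replicate 4 or male replicate 3. Erbb3 was -0.039 without female replicate 3 and male replicate 2 together, a fit chosen after seeing the data. Egf changed sign with library weights (0.21), the fast muscle covariate (0.31; 0.093 without female replicate 3), the hair follicle covariate (0.55) and without those 2 libraries (0.95, where Nrg1 was -0.0068); with 1 library left out it ran from -0.84 to 0.65. The cause of these changes was not tested.

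Over all genes, 6 were called higher and 8 lower in females. These counts were 54 and 57 with DESeq2 and 46 and 35 with the keratinocyte covariate. Those called higher were 10 with library weights, 11 with the muscle covariate and no female replicate 3, and 3 with the hair follicle covariate, while 5 were called lower without female replicate 3 and male replicate 2. With 1 library left out, 2 to 7 were called higher (3 without male replicate 1, 2 without male replicate 3 or 4) and 6 to 10 lower. The count of members with no overlap was 3 to 5 with 1 library left out, where 6.31 to 9.26% of all tested genes had none. Same-numbered libraries of the sexes had correlations of their deviations of -0.31 to -0.09. For libraries of different numbers, such correlations ran from -0.76 (female replicate 1 and male replicate 4) to 0.77 (female replicate 1 and male replicate 2). Whether the replicate numbers pair the libraries was not tested beyond these values and a replicate block. With the replicate block, 2 genes were called higher and 5 lower, and Btc had 1.31 (SE 0.40, edgeR adjusted p = 0.999). Epgn and Areg rest on 29 to 178 counts per library.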
